A study of Mus musculus with 10 samples.

Results

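The subject is how much the effect of losing Mettl3 on RNA cutting differed between mouse embryonic stem cells (ESC) and the embryoid bodies (EB) grown from them. For each site the effect was the cleavage efficiency in the knockout (KO) minus that in the wild type (WT), and the quantity described is the effect in EB minus the effect in ESC. It could be computed for the 759 sites with a value in all 4 columns, of 1626 sites in the deposited table, and the choice of these sites used no measured size. A negative difference, called a smaller effect below, means that KO lay less far above WT in EB than in ESC or farther below it. A positive one is called a larger effect.

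The series holds 10 polyA RNA libraries in 4 groups: 3 WT and 3 KO libraries of ESC, and 2 WT and 2 KO libraries of EB. The ESC had been expanded with serum and LIF over inactivated embryonic fibroblasts and then passaged on gelatin in serum-free N2B27 medium with LIF, CHIR99021 and PD0325901, the pair of inhibitors called 2i. The EB came from such cells after 9 days in suspension in serum-containing medium without LIF or 2i. The genotype is given as WT or as Metll3-/- in the labels' spelling, with METTL3 in the titles, and no source used here says how the allele was made or how many clones it covers. The table carries 1 value per site and group, so nothing below has a replicate spread or a p-value, and the reads behind each value are unknown. It holds no expression values either, so neither the loss of Mettl3 nor the markers of ESC, EB or feeder cells could be checked.

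N6-methyladenosine (m6A) is a mark that METTL3, working with METTL14, writes on adenosines of messenger RNA inside a short consensus motif. In the mouse, embryonic stem cells that lack it are known to hold on to the pluripotent state and to differentiate poorly. Some bacterial RNases that recognise ACA do not cut when the first A is methylated, so the uncut share at a site in WT, set against KO, serves as a reading of methylation there. No label used here names the enzyme. The efficiency is a fraction, with 0 for a site never cut and 1 for a site always cut, and every difference below is a difference of such fractions.

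The sites that the description turns on are shown first, because their 4 values trace how the effect differed between the stages. Each line gives the 11 deposited bases, 5′ to 3′ on the strand of the transcript, with the ACA in capitals. The first 6 had a far smaller effect in EB, the next 4 a larger one, and the last 4 nearly the same.
Scaf11: gcgagACAgag
Cenpl: tgtggACAgca
Fnbp4: gcaagACAccc
Mdm2: gcaggACAaag
Kctd10: aggagACAgcg
Plbd2: aggggACAtta
Pmf1: agtagACActt
Ranbp2: gtgggACAgag
Tfdp2: taaagACAgga
Hnrnpul1: cctggACActc
Son: taaagACAttc
Ipo9: cctggACAgtg
Ythdf1: tatggACAact
Atg13: tatggACAtgt

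The effect of the knockout was smaller in EB than in ESC at most sites. Of the 759 sites, 532 (70.1%) had a smaller effect in EB, 220 (29.0%) a larger one and 7 the same. The median difference was −0.0446, with a 95% interval over sites of −0.0551 to −0.0374 and quartiles of −0.124 and 0.010; the interval describes these sites and says nothing of other cultures. A difference of at least 0.10, the size used for every count below, was seen at 243 sites (32%) toward a smaller effect and at 42 sites (5.53%) toward a larger one. The extremes were −0.447 at a site of Scaf11 and 0.393 at a site of Pmf1.

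The direction of this general difference rests on taking the columns as deposited. With each column's median over the 759 sites subtracted, every site's difference moved by 0.107. That is more than the size of the median difference, so its change of sign follows from the shift alone. The median difference then became 0.0625, with 70.9% of sites above 0, 77 smaller and 245 larger by at least 0.10. Subtracting column means in place of medians moved every site by 0.0577, which by construction sets the mean difference to 0, and gave 123 smaller and 119 larger. Such a subtraction takes off a shift of the columns and a shared effect of genotype and stage alike. The values below are as deposited, and a site can be read against the general shift by setting it beside the median of all sites.

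Most of the sites with an effect in ESC still had it in EB. With 0.10 as the smallest effect counted, 407 sites (53.6% of the 759) had one in ESC and 306 (40.3%) had one in EB. The effect was kept at 282 sites (37.2%), lost at 125 (16.5%) and gained at 24 (3.16%), and 328 sites (43.2%) had it at neither stage. At the kept sites the median effect was 0.478 in ESC and 0.384 in EB. These sites were little cut in WT at both stages, with a median of 0.309 in ESC and 0.352 in EB, and well cut in KO, with 0.870 and 0.869.

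Lost and gained sites mostly had small effects to begin with. The lost sites had a median effect of 0.156 in ESC and 0.0139 in EB. Their WT efficiency was already 0.623 in ESC and was 0.748 in EB, while their KO efficiency was 0.795 and 0.743. Among the 125 lost sites, 94 had an effect smaller by at least 0.10 in EB, and the other 31 crossed the limit with a smaller difference. In EB 34 of them had an effect of 0.05 to 0.10 and 52 had one below 0. The 24 gained sites had a median effect of 0.0706 in ESC and 0.165 in EB, and 14 of them had an ESC effect of 0.05 to 0.10. At the limit itself, a site of Pdcd6ip with an EB effect of 0.0972 counted as lost and a site of Kifc1 with one of 0.101 as kept.

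Choosing sites by the ESC effect favours a smaller value in EB, and choosing them by the EB effect does the opposite, so both views are given. The 407 sites with an effect in ESC had a median effect of 0.331 in ESC and 0.259 in EB. The 306 sites with an effect in EB had a median of 0.450 in ESC and 0.358 in EB. From either side the ESC effect was the larger. Among the 347 sites whose effect averaged over the stages was at least 0.10, 128 were smaller in EB by at least 0.10 and 25 larger.

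**Figure D1:**
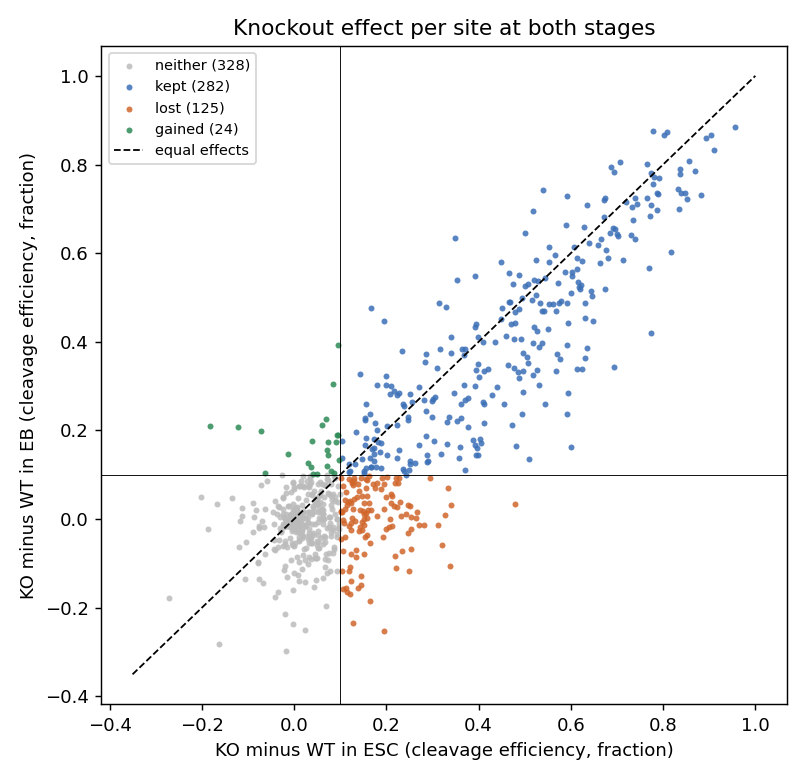
KO minus WT cleavage efficiency (fraction) of each site, plotted for ESC (horizontal) against EB (vertical), with thin lines at 0.10 and a dashed line of equal effects. Kept sites (282, blue) lie mostly below the dashed line, and 24 sites (green) were gained. Lost sites (125, orange) lie under the horizontal limit, with a median EB effect of 0.0139 and 52 of them below 0 in EB. All values are as deposited.

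Cutting in WT differed more between the stages than cutting in KO. The difference in effect is exactly the EB minus ESC difference in KO minus that in WT, so each site can be split into these parts. Over the 759 sites the median EB minus ESC difference was 0.0414 in WT and 0 in KO. WT was higher in EB by at least 0.10 at 192 sites (25.3%) and lower at 37 (4.87%), and KO was higher at 48 (6.32%) and lower at 85 (11.2%). The column medians over these sites were 0.452 in ESC WT and 0.548 in EB WT, against 0.825 in ESC KO and 0.814 in EB KO.

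At the sites with a smaller effect in EB, the larger part of the difference as deposited more often lay in WT. Of these 243 sites, WT was higher in EB by at least 0.10 at 152 (62.6%) and KO was lower at 67 (27.6%). WT moved more than KO at 168 of them (69.1%), and at 45 neither column moved by 0.10 alone. WT also led over all 759 sites: it was higher at 25.3%, KO was lower at 11.2%, and WT moved more at 443 (58.4%). The lead of WT is thus not particular to the sites with a smaller effect. With column medians subtracted, the 77 smaller sites had WT higher at 36 and KO lower at 33, so the lead of WT was slight there. With column means subtracted WT still led more clearly, by the counts given in the closing section. The 42 sites with a larger effect were split more evenly: WT was lower in EB at 20, KO was higher at 15, and both held at 3. As the difference is built from these same values, the counts describe its parts and do not test them.

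**Figure D2:**
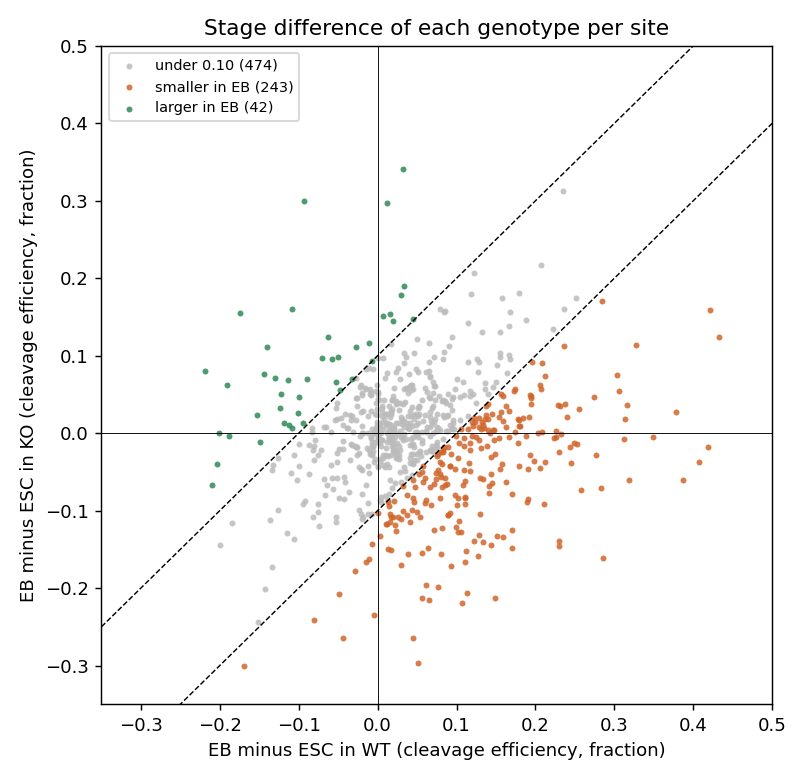
Stage difference of cleavage efficiency, EB minus ESC (fraction), plotted per site for WT (horizontal) against KO (vertical), with dashed lines where the difference in effect is 0.10 in either direction. Sites with a smaller effect in EB (243, orange) stretch to the right, where WT was higher in EB, and 42 sites with a larger effect (green) lie toward the upper left.

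A kinetochore gene and a regulator of p53 were among the sites whose effect was most reduced. Cenpl encodes a subunit of the inner kinetochore. Its 3′ UTR site (chromosome 1, position 163013294, plus strand of mm9) was at 0.132 (WT) and 0.611 (KO) in ESC and at 0.417 (WT) and 0.450 (KO) in EB. The effect was therefore 0.480 in ESC and 0.0333 in EB, the largest ESC effect among the lost sites with a gene name. Mdm2, the ubiquitin ligase that keeps p53 low, had a coding sequence (CDS) site (chromosome 10, position 117127480, minus strand) at 0.347, 0.947, 0.767 and 0.929 in the same order. KO was almost the same at both stages, and WT accounted for nearly all of the difference of −0.438, although an effect of 0.162 was kept in EB. Kif14, a mitotic kinesin, had a site in a matched transcript without a CDS with an effect of 0.313 in ESC and −0.0135 in EB.

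At 3 further sites among the 12 most reduced, the EB value of KO stayed high and WT approached it. Plbd2, which encodes a lysosomal protein, had a 3′ UTR site (chromosome 5, position 120935378, minus strand) at 0.179 (WT) and 0.953 (KO) in ESC and at 0.528 (WT) and 0.947 (KO) in EB. The tyrosine kinase gene Abl1 had a 3′ UTR site at 0.235, 0.929, 0.613 and 0.957. Ccdc34 had a CDS site at 0.229, 0.821, 0.512 and 0.750. In all 3 the effect was kept, with EB values of 0.419, 0.344 and 0.238.

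At other sites the order of the genotypes turned, and at 19 sites (2.5%) the effects were at least 0.10 in opposite directions. Scaf11 encodes a protein with an arginine and serine rich part that is linked to splicing. Its CDS site (chromosome 15, position 96249267, minus strand) was at 0.170 in ESC WT and 0.365 in ESC KO, then at 0.557 in EB WT and 0.306 in EB KO. A second Scaf11 site, chosen after its values were seen, lies in the CDS 1861 nt away and had an effect of 0.250 in ESC and −0.118 in EB. Both Scaf11 sites had a higher WT value in EB, by 0.387 and 0.229. Fnbp4, which encodes a formin-binding protein, had a CDS site (chromosome 2, position 90597806, plus strand) at 0.498, 0.837, 0.905 and 0.8, where EB WT was the highest of the 4 values. Kctd10 had a CDS site (chromosome 5, position 114825102, minus strand) with an effect of 0.321 in ESC and −0.0578 in EB.

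At some of the most reduced sites KO was lower in EB. The 5′ UTR site of Phb2, a prohibitin of the inner mitochondrial membrane, was at 0.523 (WT) and 0.650 (KO) in ESC and at 0.672 (WT) and 0.437 (KO) in EB. The 5′ UTR site of Cuedc2 was at 0.637, 0.802, 0.689 and 0.505. At both, KO was lower in EB by more than WT was higher. Cth, the cystathionine gamma-lyase gene, had a site in a matched transcript without a CDS with a difference of −0.331, of which a higher WT value made up 0.257.

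Among the further lost sites with large ESC effects, the receptor tyrosine kinase gene Tyro3 had a 3′ UTR site at 0.334 and 0.0714, and Dlgap4 a CDS site at 0.328 and 0.00838. At the Tyro3 site a higher WT and a lower KO took similar parts, 0.123 and −0.140.

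**Figure D3:**
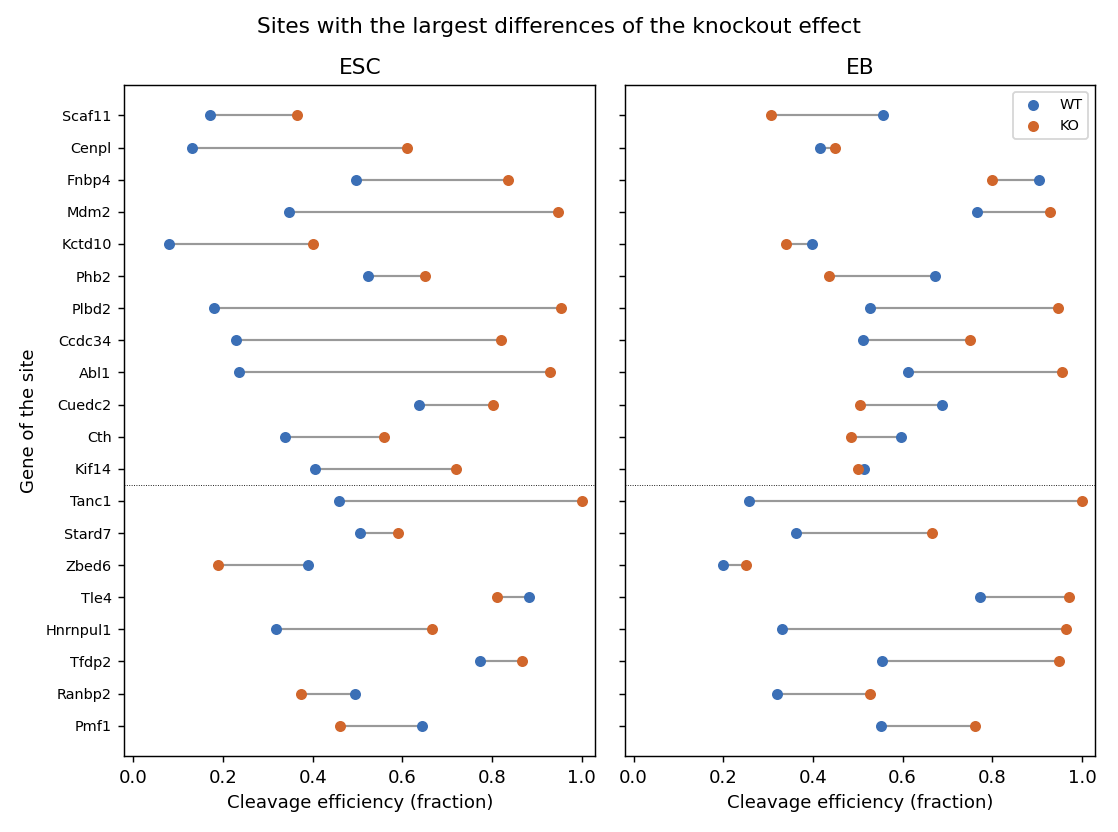
Cleavage efficiency (fraction) of WT (blue) and KO (orange), with a panel for ESC and a panel for EB, for the 12 sites with the most reduced and, under the dotted line, the 8 with the most increased effect in EB, 1 site per gene. In the upper rows the line joining WT and KO is shorter in EB or turned round, as at Scaf11, where WT went from 0.170 to 0.557; in most of the lower rows it is longer.

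Sites with a larger effect in EB were few. Hnrnpul1, an hnRNP-like RNA-binding protein gene, had a CDS site (chromosome 7, position 26539593, minus strand) at 0.318 (WT) and 0.667 (KO) in ESC and at 0.331 (WT) and 0.964 (KO) in EB. WT was nearly equal at the stages, and the higher KO value made up almost the whole difference of 0.285. Tfdp2, a dimer partner of E2F transcription factors, had a 3′ UTR site (chromosome 9, position 96218393, plus strand) at 0.773, 0.868, 0.555 and 0.948. Its effect of 0.393 in EB was the largest among the gained sites with a gene name, and its ESC effect of 0.0949 lay just under the limit. Tanc1, a scaffold protein gene, had a CDS site fully cut in KO at both stages, at 1, and at 0.459 in ESC WT and 0.258 in EB WT.

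At 2 of the gained sites KO was the lower genotype in ESC by at least 0.10 and the higher in EB. Pmf1, a subunit of the outer kinetochore, had a site in a matched transcript without a CDS (chromosome 3, position 88214111, minus strand) at 0.644 (WT) and 0.462 (KO) in ESC and at 0.551 (WT) and 0.762 (KO) in EB. Ranbp2, a nucleoporin gene, had a CDS site (chromosome 10, position 57955229, plus strand) at 0.495, 0.373, 0.321 and 0.528. The other gained sites among the 6 largest were in Stard7, which carries phosphatidylcholine to mitochondria, at 0.0844 in ESC and 0.304 in EB, in the tRNA methyltransferase gene Trmt5 at 0.0695 and 0.225, and in the corepressor gene Tle4 at −0.0717 and 0.198. WT was lower in EB at all of these 5 sites, with EB minus ESC differences from −0.174 at Ranbp2 to −0.0928 at Pmf1. Zbed6, a transcriptional repressor, had a difference of 0.252 without an effect of 0.10 in EB, because KO minus WT was −0.202 in ESC.

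Some large effects were nearly equal at the stages as deposited, and the 6 sites named here were chosen for that among those with both effects at least 0.50. A 3′ UTR site of Atg13 (chromosome 2, position 91515604, minus strand), a gene of autophagy initiation, had an effect of 0.543 in ESC and 0.544 in EB. A CDS site of Son (chromosome 16, position 91659680, plus strand), a splicing cofactor of nuclear speckles, was at 0.233 (WT) and 0.953 (KO) in ESC and at 0.219 (WT) and 0.934 (KO) in EB. The importin gene Ipo9 had a 3′ UTR site (chromosome 1, position 137281823, minus strand) with effects of 0.774 and 0.781, the m6A reader gene Ythdf1 a CDS site (chromosome 2, position 180646775, minus strand) with 0.671 and 0.681, Uhrf2 one with 0.607 and 0.613, and Zbtb8a one with 0.528 and 0.537. Over all 109 sites with a mean effect of at least 0.50, 82 had effects within 0.10 of each other at the stages, 21 were smaller in EB and 6 larger.

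The difference was largest where WT was cut to a middle level. Grouped by ESC WT efficiency, sites at 0.4 to 0.6 had a median difference of −0.117 (99 sites), those up to 0.1 one of −0.0149 (146 sites) and those over 0.9 one of −0.0108 (74 sites). ESC WT is itself a part of the difference, so the sites were also grouped by the WT efficiency averaged over the stages. In that grouping sites at 0.4 to 0.6 had a median of −0.107 (106 sites, interval −0.142 to −0.0764) and those at 0.6 to 0.8 one of −0.0863 (127 sites). At the ends, sites up to 0.1 had a median of −0.000249 (129 sites) and those over 0.9 one of −0.0165 (83 sites). At least 0.10 smaller were 51.9% of the sites at 0.4 to 0.6, 10.9% of those up to 0.1 and 7.23% of those over 0.9, against 32% of all. The bounds of a fraction limit how far a WT value near 0 or 1 can move in 1 direction. On a logit scale the latter groups had medians of −0.461 at 0.4 to 0.6, −0.135 up to 0.1 and −0.246 over 0.9, and the 4 levels between 0.1 and 0.9 other than the middle one ran from −0.454 to −0.387. On that scale the ends had the least negative medians and the middle was almost level with its neighbours.

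Sites with a mean effect near 0 also leaned toward a smaller value in EB. At the 282 sites whose mean effect lay between −0.05 and 0.05 the median difference was −0.0269, with 65 smaller and 10 larger by at least 0.10, and WT was higher in EB by a median of 0.0235. The middle 90% of these sites ran from −0.219 to 0.0843. Over all 759 sites, 70 lay below that range and 58 above it. The groups with mean effects of 0.05 to 0.2, 0.2 to 0.4 and 0.4 to 0.6 had medians of −0.0663, −0.0767 and −0.0786, and the 64 sites above 0.6 one of −0.0399.

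The deposited classes and the base 2 positions before the A went with the size of the effect itself, while its difference between the stages had similar medians across them. The classes, which the table names CellRep_low, CellRep_intermediate, CellRep_high and highest without saying how they were made, had median ESC effects of 0.0309, 0.0728, 0.233 and 0.430. Their median differences between stages were −0.0457, −0.0391, −0.0478 and −0.0484, in 128, 237, 344 and 50 sites. GGACA sites had a median ESC effect of 0.167 and AGACA sites one of 0.0648, while their differences between stages were −0.0444 (469 sites) and −0.0458 (290 sites). The intervals of all 4 classes overlap, as do those of the sequences. Among the other flanking bases, the medians ran from −0.0315 with T 3 bases after the A to −0.0644 with G 3 bases before it.

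Kept and lost sites, which are counted from the size of the effects, were spread unequally over these classes. The high class held 194 of the 282 kept sites and 43 of the 125 lost ones, and the intermediate class 45 and 56. The highest class held 40 and 4, and the low class 3 and 22. By sequence, 220 kept and 71 lost sites were GGACA and 62 and 54 were AGACA. Of 229 sites within 100 nt of an exon junction, 27 were kept, 51 were lost and 145 had an effect at neither stage. Of 419 sites farther away, 212 were kept, 65 were lost and 129 had an effect at neither stage. Effects in ESC were smaller near junctions, with a median of 0.0538 against 0.196 farther away. The median difference itself was −0.0563 near junctions and −0.0461 farther away, with overlapping intervals.

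By region the 3′ UTR had the most negative median. It was −0.0626 in the 3′ UTR (199 sites, interval −0.0830 to −0.0480), −0.0432 in the CDS (363 sites, −0.0588 to −0.0310) and −0.0377 in the 5′ UTR (62 sites, −0.0781 to −0.0162). The 3 intervals overlap. Smaller by at least 0.10 were 36.2%, 31.7% and 32.3% of these sites. With column medians subtracted all sites move alike, so the order of the 3 medians cannot change, and they become 0.0444, 0.0638 and 0.0694. Divided by KO, which keeps only sites with KO of at least 0.20, they were −0.0936, −0.0623 and −0.0661. There the 3′ UTR was still the most negative, and the CDS and the 5′ UTR changed places.

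**Figure D4:**
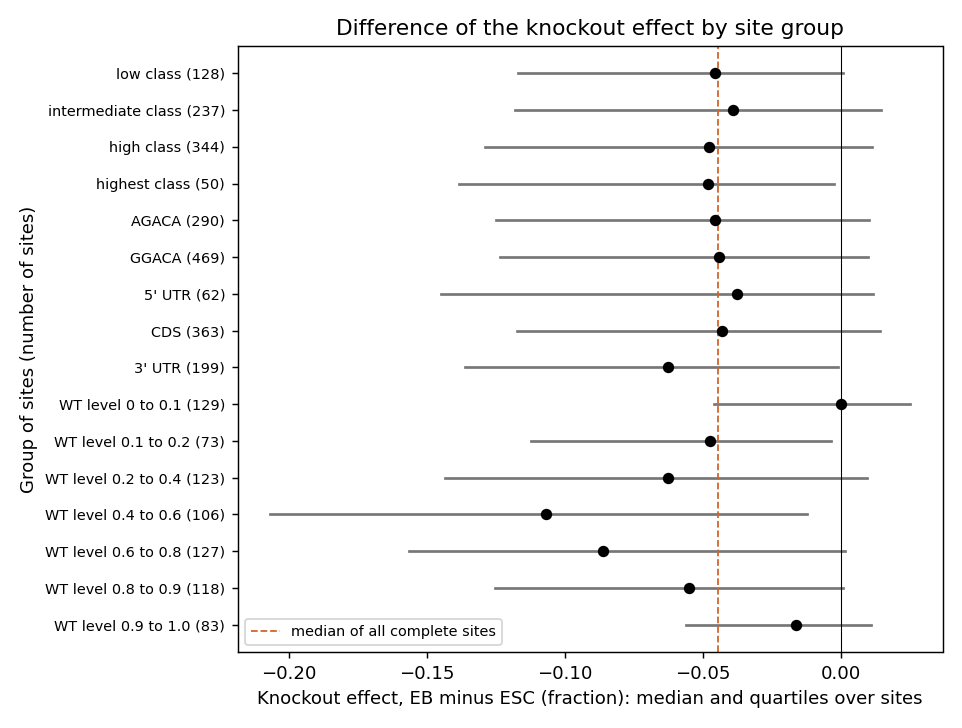
Difference of the knockout effect, EB minus ESC (fraction), drawn as medians (points) between quartiles (bars), by deposited class, sequence, transcript region and WT efficiency averaged over the stages, with the number of sites in brackets. The classes and sequences sit near the dashed median of all sites, −0.0446, and the WT levels run from −0.107 in the middle to near 0 at the lowest level; with column medians subtracted every point moves right by 0.107.

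Gene lists were read against the 32% of all complete sites that were smaller, the 5.53% that were larger and the 16.5% that were lost. No list is shown here to stand apart, since none was tested and the sites of a list can share a gene. Of the 19 sites in splicing factor and hnRNP genes 9 were smaller and 1 larger, with a median of −0.0764 (interval −0.177 to −0.0308) and 7 sites lost. Both Scaf11 sites are among the smaller and the lost ones. Beside Scaf11 and Hnrnpul1, already described, Srsf11, an SR-family protein gene, had a CDS site at 0.208 in ESC and 0.0012 in EB, and Sf3a3, a subunit of the U2 particle, one at 0.0430 and −0.153. The cell cycle list had 14 of 37 sites smaller and 2 larger, with a median of −0.0785 (−0.112 to −0.0202) and 9 sites lost. Its members above 0.10 were Polr3e and Polr2b, at 0.176 and 0.103, which encode RNA polymerase subunits and belong to the list by the start of their names alone. Divided by KO, the Polr2b difference turned to −0.00640.

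Chromatin and transcription regulators had 12 of 38 sites smaller and none larger by 0.10, a share of 31.6% near that of all sites, with a median of −0.0515. Smarcb1, a core subunit of BAF complexes, had a 3′ UTR site at 0.663 (WT) and 0.928 (KO) in ESC and at 0.792 (WT) and 0.796 (KO) in EB. Its effect of 0.265 in ESC was lost, as was that of the corepressor scaffold gene Sin3a, at 0.207 in ESC and −0.0186 in EB. Kdm5a, a histone demethylase gene, kept 0.373 of an effect of 0.570. The translation list had 6 of 20 sites smaller and 1 larger, with a median of −0.0548. The mitochondrial ribosomal gene Mrpl44 was at 0.388 in ESC and 0.179 in EB, a CDS site of Nolc1 at 0.153 and −0.0409, and Rps19bp1 at 0.675 and 0.519. The site of Eif2a was the member larger in EB, at 0.688 in ESC and 0.795 in EB. For the splicing, cell cycle, chromatin and translation lists the medians turn positive with column medians subtracted, at 0.0306, 0.0285, 0.0555 and 0.0523.

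The m6A list had 9 sites in 6 genes, of which 1 was smaller in EB by at least 0.10 and none larger. Its 5 sites with an effect in ESC, 3 of them in Ythdf2, kept it, and the other 4 had an effect at neither stage. Over all sites 282 of 407 kept it, but these 5 had ESC effects of 0.272 or more. Keeping was usual at such sizes: 84 of all 87 sites with a mean effect of 0.2 to 0.4 were kept. All 94 sites at 0.4 to 0.6 were kept too. All 64 sites above 0.6 were kept by arithmetic, because a mean of that size leaves neither effect under 0.10. The mean includes the EB effect that defines keeping, so these counts describe the sites and do not test keeping. Ythdf2, the reader that leads methylated RNA to decay, had 3 CDS sites with effects of 0.533, 0.707 and 0.603 in ESC and 0.487, 0.806 and 0.557 in EB. The Prrc2a site was at 0.272 and 0.298. The smaller site was in Prrc2c, at 0.0872 in ESC and −0.0637 in EB, and the Ythdc1 site was at 0.0313 and −0.0441. A Ythdf1 site and a Ythdf2 site share their 11 bases in these related genes, so reads of the copies could be mixed, and the sources used here do not say how such reads were assigned. The median of −0.0460 lay close to that of all sites; with column medians subtracted it was 0.0610.

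The nuclear pore and transport list had as many smaller as larger sites, 2 of 11 each as deposited. Its median was −0.00656 (−0.123 to 0.173) as deposited, 0.100 with column medians subtracted and −0.196 on the logit scale. Nup98 was at 0.852 in ESC and 0.721 in EB. A pair of Ranbp3 sites in the 3′ UTR, 220 nt apart, went opposite ways, from 0.314 to 0.488 and from 0.497 to 0.374. The endoplasmic reticulum, folding and degradation list had 4 of 22 sites smaller and 1 larger, with a median of −0.0222 (−0.0545 to 0.0152), or 0.0848 with column medians subtracted. Its smaller sites included Dnajc9, at 0.0700 in ESC and −0.0780 in EB, and the chaperonin gene Cct7, at 0.144 and 0.0202. Cul1, the scaffold of SCF ubiquitin ligases, was at 0.0515 and −0.0656, and the larger site was in the disulfide isomerase gene Pdia6, at −0.118 and −0.00379.

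Genes of the stem cell state and of differentiation had few complete sites. Of the pluripotency list 2 sites were complete, both kept: Zfp281, a transcription factor of the exit from pluripotency, at 0.496 in ESC and 0.287 in EB, and the DNA demethylase gene Tet1 at 0.436 and 0.399. The list of lineage and signalling genes had 5 sites in 3 genes, of which 3 were smaller. Fat1, a large protocadherin gene, had 3 CDS sites with effects of 0.405, 0.528 and 0.542 in ESC and 0.171, 0.337 and 0.470 in EB, all with a higher WT value in EB, by 0.233, 0.177 and 0.136. The Tcf3 site was at 0.0237 and −0.251. In the matrix and adhesion list, which feeder fibroblasts also express, 2 of 6 sites were smaller: Lamb1, a laminin chain of basement membranes, at 0.357 and 0.138, and the collagen prolyl hydroxylase gene P4ha1 at 0.0845 and −0.0239. Cell makeup differs between ESC and EB, and its part in these values was not tested.

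**Figure D5:**
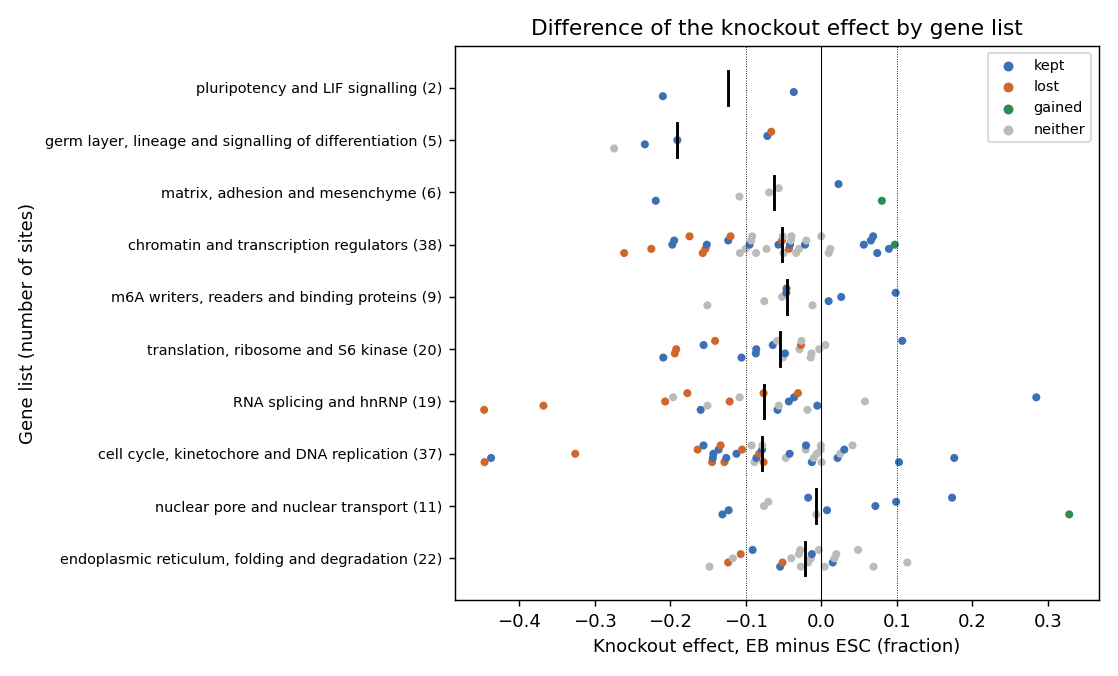
Difference of the knockout effect, EB minus ESC (fraction), of each complete site in 10 gene lists, coloured by whether the effect was kept (blue), lost (orange), gained (green) or at neither stage (grey), with a black bar at the list median and dotted lines at 0.10 in either direction. The cell cycle and splicing lists reach down to −0.446 and −0.447, and the nuclear pore list up to 0.329; with column medians subtracted every point moves right by 0.107.

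Sites of the same gene could differ. There were 66 pairs of complete sites within 56 genes, with a median gap of 0.0814 between their differences (quartiles 0.0426 and 0.138) and the same sign in 47 pairs (71.2%). Over the 215430 pairs from different genes the median gap was 0.101 and 58.0% had the same sign. Among genes with 3 sites, all of Ahnak lay above 0 as deposited, at 0.0285, 0.0704 and 0.0342, although the first was −0.470 on the logit scale. All of Fat1 lay below 0, although the third was 0.0355 with column medians subtracted. Slc2a3, a glucose transporter gene, had differences of −0.0391, −0.0374 and −0.0930. Arid1a, a BAF subunit gene, was at 0.0897, −0.0428 and 0.0742, and Ythdf2 at −0.0463, 0.0986 and −0.0460, so neither had a single direction as deposited. With column medians subtracted all sites of Slc2a3, Arid1a and Ythdf2 lay above 0.

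The genes with 2 sites ranged from near equality to opposite differences. Among those with a site past 0.10 in size, the closest were these 4. The sites of Nolc1 were at −0.194 and −0.192, those of Lrch4 at −0.288 and −0.276, those of Eml4 at −0.103 and −0.0887 and those of Ik at −0.0865 and −0.118. Among those far apart, Dlgap5 was at 0.0714 and −0.295. Zfp106 was at 0.0207 and −0.285 and Ranbp3 at 0.173 and −0.123. In each of these 3 far pairs 1 site stayed within 0.10 or was larger. Pairs under 0.10 could be as close with the other sign: the sites of Dazap1, named after their values were seen, were at 0.0902 and 0.0855.

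Sites that share the same 11 bases could differ too. In 52 pairs of sites that share all 11 bases across 94 genes, the median gap was 0.127 and 23 pairs (44.2%) had the same sign. Over all pairs from different genes these were 0.101 and 58.0%. Each value is single and of unknown depth, and the part of the sequence in the difference was not tested. The sequence of Hnrnpul1 shown above is also that of a 3′ UTR site of Dus1l, a tRNA-modifying enzyme gene. Their differences were 0.285 and −0.293, the widest gap of the 52.

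Many sites could not be followed across the stages. At 287 sites both ESC values were given but not both EB values, 261 of them without a value in EB KO. Of the 287 sites, 173 had an effect of at least 0.10 in ESC, beside 407 of the 759 complete sites. Their median ESC effect was 0.161, against 0.121 at the complete sites. At 96 sites only the EB pair was complete, and 52 of them had such an effect in EB, beside 306 of the 759. Their median EB effect was 0.110, against 0.0558 at the complete sites. The complete sites thus had smaller median effects than the sites left out at either stage. Whether those effects were kept, lost or gained is not known from the table.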

How the data were processed

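Per the labels' protocols, polyA RNA fragments were made into sequencing libraries by adapter ligation. The submitters' processing notes name STAR 2.5.3a, bedtools 2.26.0 and the build mm9 without their roles. Per the file headers, the values the authors computed and deposited are cleavage efficiencies, the fraction of each site cut in each group, from 0 to 1. How reads were counted or filtered and whether a column pools its libraries is not stated, so depth is unknown. The table held 0 value columns of no group.

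Differences were taken on the fraction with no filter (Python 3.11.15, pandas 2.3.3, numpy 2.4.6, scipy 1.17.1). The code was checked on ESC values copied to EB with KO lowered at some sites, without noise, and the interval on random draws. That check covers the arithmetic and does not bear on noise or depth in the data. Intervals are 95% order-statistic intervals over sites. With 1 value per group no test, replicate block or omission of a library was possible.

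Genes were named by matching the 11 bases to GENCODE M21 transcripts on the same chromosome and strand, allowing 100 nt from the transcript position given and 10000000 nt from the genome position. Of 1626 sites 1473 matched a single gene, and 1423 also had, among the 3 nearest named sites to each side, a site of another gene with the same offset between builds. Positions are those of the deposited table, and regions are those of the matched transcripts. Of the 759 complete sites, 657 had a gene name.

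Grouping sites by WT efficiency averaged over the stages was added after seeing the data. The members, lists and sizes were chosen with earlier results of these data known. Named sites follow a rule, 1 site per gene: the 12 most reduced and 8 most increased, the 6 largest lost and gained, the 6 least changed with both effects at least 0.50, up to 3 per list and direction past 0.10, genes with 3 sites, the 4 closest and 4 farthest pairs in genes with 2 sites, at least 1 of them past 0.10, and effects of at least 0.10 in opposite directions. For 1 gene chosen in this way no result is reported here.

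Alternatives were a logit scale (values limited to 0.01 to 0.99, size 0.40), column medians subtracted, the effect divided by KO, a size of 0.20, only sites with KO of at least 0.20, with a mean of 0.05 to 0.95 or with no value of 0 or 1, no low class, the mean for the median and, added after seeing the data, column means subtracted.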

Additional observations from a re-analysis of the deposited data

Results flagged for a closer look

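At 19 sites (2.5% of the 759) in 18 genes the knockout effect was at least 0.10 in opposite directions at the stages. The difference was not tested, since each group has a single value. At 17 of them KO was above WT in ESC and below it in EB. The largest differences of this kind were −0.447 and −0.368 at the Scaf11 sites, −0.444 at Fnbp4, −0.363 at Phb2, −0.348 at Cuedc2 and −0.331 at Cth. Genes of the mitotic spindle, tRNA modification and the Golgi followed, with Dlgap5 at −0.295, Dus1l at −0.293 and Glg1 at −0.281. Lrch4 was at −0.288, the transporter gene Atp13a1 at −0.274 and the kinase gene Wnk1 at −0.269. Knop1 was at −0.263 and the farnesyltransferase subunit gene Fnta also at −0.263. The smallest were −0.236 at Rrp8, −0.229 at Ndufs1, a subunit of respiratory complex I, and −0.220 at Atad5. At Ranbp2 (0.329) and Pmf1 (0.393) the order was the reverse.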

How the results depend on the processing

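The median difference of −0.0446 stayed below 0 under every alternative except the subtraction of column medians (0.0625) or means (0.0132), which shift all sites alike. It was −0.371 on the logit scale, −0.0661 divided by KO, −0.0563 with KO of at least 0.20, −0.0553 with a mean of 0.05 to 0.95, and −0.0577 as a mean. On the logit scale 371 sites were smaller (255 with WT higher, 180 with KO lower), 128 larger and 38 gained. With column medians subtracted 77 were smaller (36 and 33), 245 larger, 121 kept and 24 lost; with means subtracted, 123 (64 and 42), 119, 181 and 31. At a size of 0.20, 83 were smaller (38 and 9), 11 larger and 69 lost. The GGACA minus AGACA contrast of 0.00144, the high minus low class contrast of −0.00211 and the WT level contrast of −0.0961 (0.4 to 0.6 against up to 0.1 and over 0.9 together) were −0.0127, −0.0209 and −0.308 on the logit scale. With column medians subtracted the medians of all regions and of every list of 6 or more sites turned positive: 3′ UTR (0.0444), CDS (0.0638), 5′ UTR (0.0694), chromatin (0.0555), translation (0.0523), splicing (0.0306), cell cycle (0.0285), matrix (0.0443), m6A (0.0610), nuclear pore (0.100) and endoplasmic reticulum (0.0848). With means subtracted this held for CDS (0.0145), 5′ UTR (0.0201), chromatin (0.00621), translation (0.00296), m6A (0.0117), nuclear pore (0.0512) and endoplasmic reticulum (0.0355); the nuclear pore median also turned under 5 other alternatives. Of 89 named sites, 65 were at least 0.10 in size, of which an Eml4 site turned with medians subtracted (0.00435) and the Polr2b site when divided by KO (−0.00640). Among the smaller ones 10 turned with medians subtracted, 6 with means, 6 when divided by KO and 5 on the logit scale. The cause was not tested. No paired analysis was possible because the columns carry no replicate numbers, and leaving out a library was not run for the same reason. Without the low class the high minus low contrast and the matrix list median (under 6 sites) had no value. Unknown depth limits every single-site value.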
